A study of Rattus norvegicus with 6 samples.

Results

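The insulin-like growth factor (IGF) axis was examined in the transcripts of rat cardiac fibroblasts that had received an antagomiR against miR-142-3p or a negative control oligonucleotide (NC). Its 10 genes were taken by symbol out of the 30560 rows of the deposited table. They are the ligand genes Igf1 and Igf2, the receptor genes Igf1r and Igf2r, and the binding protein genes Igfbp2 to Igfbp7. The family was selected on the FPKM values of antagomiR and NC cultures, whose contrast was known from earlier results. Their values are therefore a description and carry no test. All 10 had a mean of at least 1 FPKM (fragments scaled to gene length and library size) over the libraries, the minimum set for testing, and also a mean of at least 1 FPKM within each group.

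The cells were primary cultures from ventricles of newborn SD rats aged 1 to 2 days, in which fibroblasts were kept because they attach early, and were held without serum overnight. The antagomiR group was transfected with 50 nM miR-142-3p antagomiR, a modified antisense oligonucleotide that blocks a mature microRNA, and the NC group with 50 nM control, both with Lipofectamine RNAiMAX. There were 3 polyA-selected libraries in each group. The labels name no genetic change of the cells. They do not say whether the libraries came from separate cell isolations, so the spread between them may be technical.

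IGF1 and IGF2 are secreted peptides that signal through the tyrosine kinase receptor IGF1R to the PI3K and AKT pathway and promote growth and survival. IGF2R, the mannose 6-phosphate receptor, takes up IGF2 for breakdown in lysosomes and also sorts lysosomal enzymes. The binding proteins hold IGFs in the medium and matrix, prolong their life or keep them from the receptor, and are cut by dedicated proteases. Fibroblasts and macrophages of the heart are known sources of IGF1.

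The oligonucleotide was directed against this mature microRNA, which is shown with the seed (bases 2 to 8) in capitals, because its silencing defines the tested condition. The sequence is that of RefSeq, from the plus strand of chr10:73055155-73055177 in GRCr8.
rno-miR-142-3p: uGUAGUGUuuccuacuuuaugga
PolyA libraries do not measure the mature form. The precursor gene Mir142 had 7, 5 and 8 fragments in antagomiR replicates 1 to 3, against 6, 3 and 3 in NC replicates 1 to 3, which is no check of the silencing. Its level was 2.84, 1.83 and 3.15 FPKM in antagomiR replicates 1 to 3, against 2.78, 1.11 and 1.37 FPKM in NC replicates 1 to 3, and it was not called (limma adjusted p = 0.25, or 0.0436 without NC replicate 1).

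Library totals recovered from the FPKM values lay between 19472409 and 24622667 fragments, and each of the 10 genes had between 182 and 28012 fragments in a library. All 10 fibroblast markers were present, with a summed level of 10740 to 11028 FPKM with the antagomiR and 11343 to 11447 FPKM in NC. Leukocyte transcripts were also present, and all 15 of these markers were highest among the NC libraries in NC replicate 3. Their summed level was 1121, 1008 and 1064 FPKM in antagomiR replicates 1 to 3, against 150, 219 and 766 FPKM in NC replicates 1 to 3. Smooth muscle and pericyte markers summed to 298, 291 and 294 FPKM in antagomiR replicates 1 to 3, against 431, 413 and 395 FPKM in NC replicates 1 to 3, with Rgs5, Kcnj8 and Abcc9 under 1 FPKM throughout. Cardiomyocyte markers summed to 404, 341 and 380 FPKM in antagomiR replicates 1 to 3, against 419, 464 and 436 FPKM in NC replicates 1 to 3. Endothelial markers summed to 5.17, 5.29 and 5.84 FPKM in antagomiR replicates 1 to 3, against 3.66, 3.16 and 4.54 FPKM in NC replicates 1 to 3. Of these 8 markers 6 stayed under 1 FPKM in every library, among them Pecam1 and Cdh5. The values are those of whole cultures, where fewer cells of a type and less RNA per cell cannot be told apart.

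In these cultures Igfbp3 was 5.58 times as high with the antagomiR as in NC, while Igfbp2 and Igfbp5 were 0.513 and 0.483 times as high. Both ligand genes were lower with the antagomiR, Igf1 slightly and Igf2 more. Igf2r and Igfbp7 were higher, and Igf1r had the same mean in both groups. Of the 10 genes, 3 were higher and 4 lower with ranges that did not overlap, beside 44.6% of the 12024 tested genes whose ranges did not overlap. The fit across all genes (limma on log2(FPKM + 1), Benjamini-Hochberg adjusted p under 0.05) put the same number past its threshold, 3 higher and 4 lower, beside 26.7% of all tested genes. Nothing is read from these counts, since this contrast was known when the genes were chosen. The median log2 fold change was -0.19 over the 10 genes and 0.06 over all tested genes. Without NC replicate 3 the counts past the threshold were again 3 and 4, beside 40.5% of all tested genes at that setting.

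**Figure D1:**
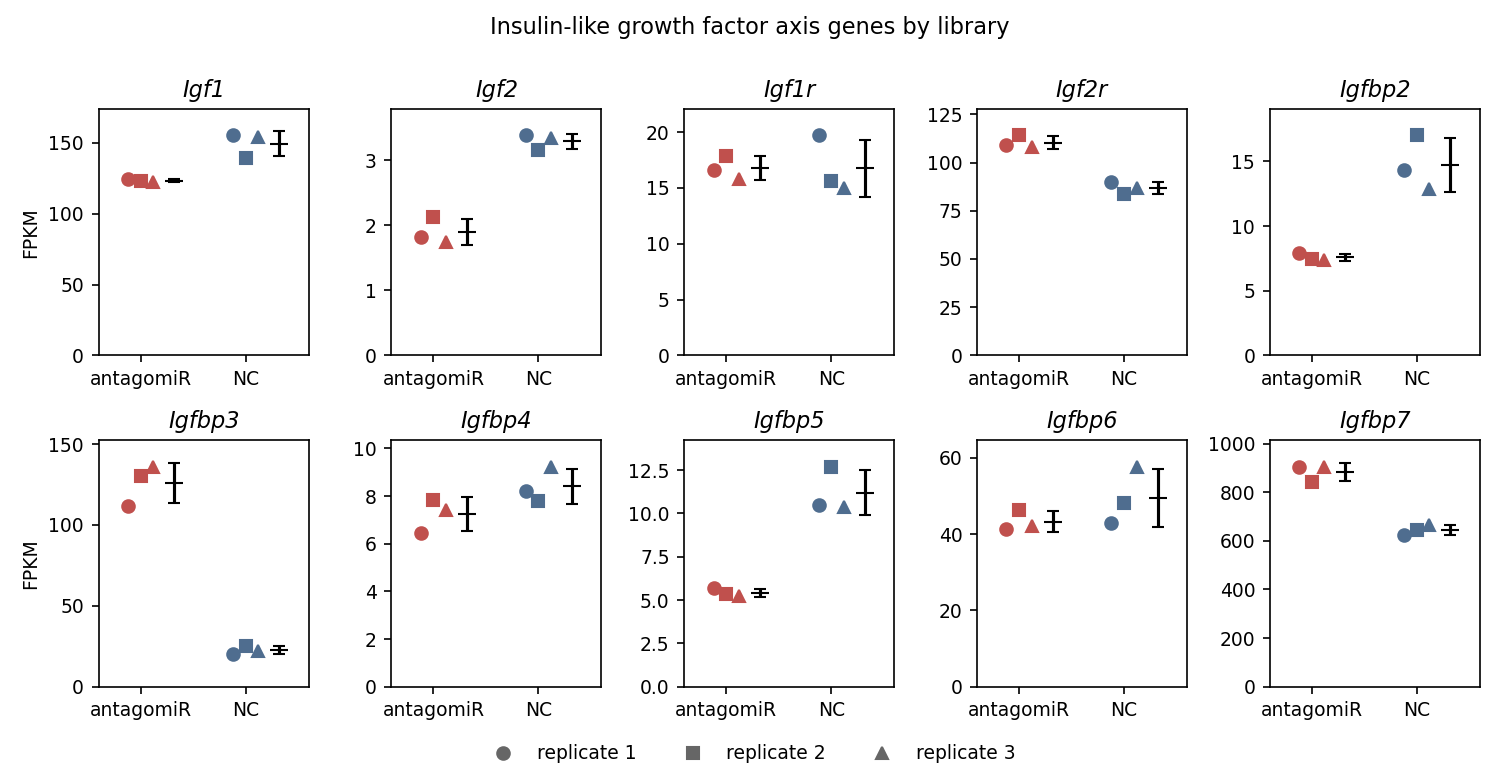
FPKM (y axis, from 0, a scale of its own for each gene) of the 10 genes in the antagomiR libraries (left, red) and the NC libraries (right, blue); symbols mark the replicate, and bars give the mean and SD of 3 libraries. The groups are apart for Igf1, Igf2, Igf2r, Igfbp2, Igfbp3, Igfbp5 and Igfbp7, and overlap for Igf1r, Igfbp4 and Igfbp6.

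Igf1 (ENSRNOG00000004517), the main ligand for IGF1R, is listed on chr7:22282930-22359296 in mRatBN7.2, the build of all gene coordinates given from the files. It had 124, 123 and 122 FPKM in antagomiR replicates 1 to 3, against 155, 139 and 154 FPKM in NC replicates 1 to 3. Every antagomiR library lay below every NC library, and the antagomiR libraries were nearly equal. The means were 123 ± 0.891 FPKM with the antagomiR and 149 ± 9.1 FPKM in NC (SD, n = 3 each). On the log2(FPKM + 1) scale used throughout, antagomiR minus NC came to -0.27 (standard error 0.058). Igf1 thus remained one of the more abundant transcripts, at place 463 of the 12024 tested genes by mean FPKM. 

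Igf2 (ENSRNOG00000020369), a fetal growth factor expressed from the paternal allele, lies on chr1:197814410-197823018. Its levels were 1.82, 2.12 and 1.75 FPKM in antagomiR replicates 1 to 3, against 3.38, 3.16 and 3.34 FPKM in NC replicates 1 to 3. The groups were clearly apart, with the highest antagomiR library well under the lowest NC library. The mean was 0.575 times that of NC. Its log2 fold change was -0.57 (standard error 0.085), or -0.77 with a pseudocount of 0.1 and -0.87 by voom on the recovered fragments, since adding 1 to so low a level shrinks the difference. With between 182 and 350 fragments in a library it had the fewest fragments of the 10 genes in every library. Per unit of length Igf1 transcripts were 65.5 ± 6.35 times as abundant as Igf2 transcripts with the antagomiR and 45.3 ± 1.25 times in NC (SD, n = 3 each).

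The receptor genes differed from each other. Igf2r (ENSRNOG00000014997, chr1:47979109-48067501) had 109, 114 and 108 FPKM in antagomiR replicates 1 to 3, against 89.9, 83.9 and 86.7 FPKM in NC replicates 1 to 3. All antagomiR libraries were above all NC libraries, and the log2 difference was 0.34 (standard error 0.051). Igf1r (ENSRNOG00000014187, chr1:121550743-121831777), the receptor that transmits the growth signal, had 16.6, 17.9 and 15.8 FPKM in antagomiR replicates 1 to 3, against 19.7, 15.6 and 15 FPKM in NC replicates 1 to 3. NC replicate 1 was the highest and the other NC libraries the lowest, so that the groups overlapped fully. Its log2 fold change was 0.0065 (standard error 0.11), ran from -0.064 to 0.12 when single libraries were left out, and was -0.058 after median-ratio scaling. Igf2r transcripts outnumbered those of Igf1r, per unit of length, by 6.58 ± 0.24 times with the antagomiR and 5.24 ± 0.623 times in NC (SD, n = 3 each).

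Igfbp3 (ENSRNOG00000061910), the main carrier of IGFs in blood and an inhibitor or enhancer of their action in tissue, showed the widest difference. It lies on chr14:82056347-82064083. It had 112, 130 and 136 FPKM in antagomiR replicates 1 to 3, against 20.4, 25 and 22.2 FPKM in NC replicates 1 to 3. No antagomiR library came near the NC range. Behind these values stood 6005 to 7739 fragments with the antagomiR and 961 to 1467 in NC. The means were 126 ± 12.4 FPKM with the antagomiR and 22.6 ± 2.33 FPKM in NC (SD, n = 3 each), which is a log2 difference of 2.43 (standard error 0.10). Of the 12024 tested genes, 72 had a higher log2 fold change. Without NC replicate 3 the ratio of the means was 5.54.

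Igfbp7 (ENSRNOG00000002050), a relative with low affinity for IGFs that is secreted by fibroblasts and vascular cells, was the most abundant of the 10 genes. It had 905, 841 and 905 FPKM in antagomiR replicates 1 to 3, against 625, 645 and 664 FPKM in NC replicates 1 to 3. The groups did not overlap, and their log2 difference was 0.45 (standard error 0.064). It ranked at place 73 of the 12024 tested genes by mean FPKM. Its span, chr14:30737164-30797314, overlaps at its higher-coordinate end the lower-coordinate end of Polr2b, listed from 30797228. Polr2b had 24, 22.3 and 23.3 FPKM in antagomiR replicates 1 to 3 and 21.8, 20.8 and 19.8 FPKM in NC replicates 1 to 3. Reads of the shared stretch cannot be told apart without a stated strand setting.

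Igfbp2 and Igfbp5 had the lowest fold changes. Igfbp5 (ENSRNOG00000017206), a binding protein that attaches to extracellular matrix, had 5.67, 5.37 and 5.23 FPKM in antagomiR replicates 1 to 3, against 10.5, 12.7 and 10.4 FPKM in NC replicates 1 to 3. Igfbp2 (ENSRNOG00000016957), which is abundant in fetal tissues, had 7.91, 7.44 and 7.39 FPKM in antagomiR replicates 1 to 3, against 14.3, 17 and 12.9 FPKM in NC replicates 1 to 3. In both genes NC replicate 2 was the highest library and the antagomiR libraries were tightly grouped below all NC libraries. The log2 fold changes were -0.92 (standard error 0.088) for Igfbp5 and -0.87 (standard error 0.10) for Igfbp2. The ratio of Igfbp2 to Igfbp5 FPKM stayed between 1.38 and 1.41 in the antagomiR libraries and between 1.24 and 1.36 in the NC libraries.

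Igfbp4 and Igfbp6 overlapped between the groups. Igfbp4 (ENSRNOG00000010635, chr10:83989591-84007225), mostly an inhibitor of IGF action, had 6.44, 7.83 and 7.42 FPKM in antagomiR replicates 1 to 3, against 8.22, 7.78 and 9.23 FPKM in NC replicates 1 to 3. Only antagomiR replicate 2 reached into the NC range. Igfbp6 (ENSRNOG00000010977, chr7:133276234-133280966), which prefers IGF2 to IGF1, had 41.4, 46.4 and 42.1 FPKM in antagomiR replicates 1 to 3, against 42.8, 48.1 and 57.7 FPKM in NC replicates 1 to 3. NC replicate 3 was the highest of the 6 libraries. The log2 fold changes were -0.19 (standard error 0.092) for Igfbp4 and -0.18 (standard error 0.11) for Igfbp6. Without NC replicate 3 they were -0.13 and -0.069. Igfbp4 was at -0.33 after quantile normalization, and Igfbp6 at -0.28 without NC replicate 1. These differences were within or close to the spread between libraries, which does not show that the levels were equal.

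**Figure D2:**
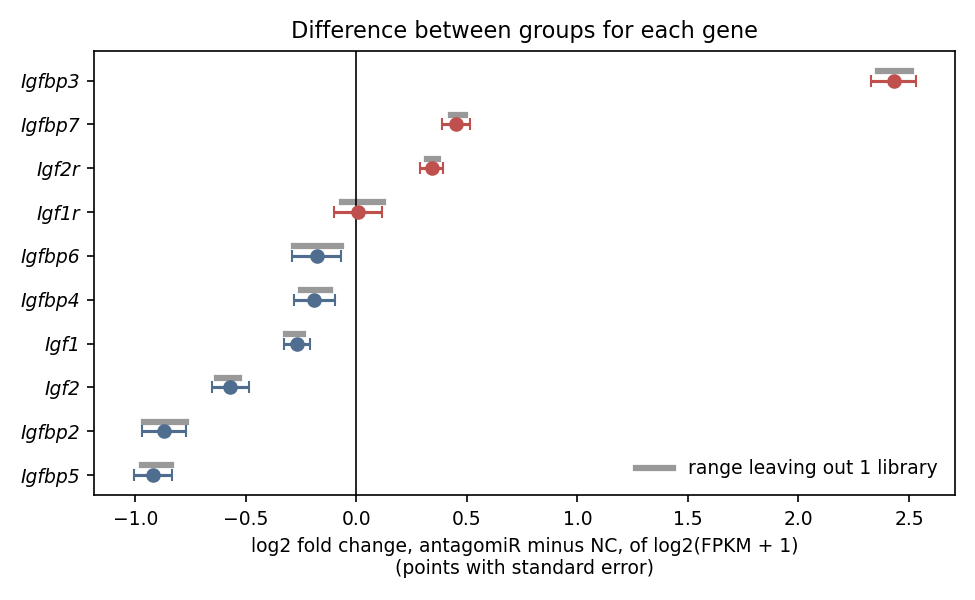
Log2 fold change (x axis, antagomiR minus NC of log2(FPKM + 1)) of the 10 genes (rows), with the standard error as bars and the range when 1 library is left out in grey; red marks values above 0 and blue values below 0. Igfbp3 stands alone at 2.43, Igfbp5 and Igfbp2 lie lowest at -0.92 and -0.87, and the range of Igf1r spans 0.

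The order of the levels differed between the groups. With the antagomiR it ran Igfbp7, Igfbp3, Igf1, Igf2r, Igfbp6, Igf1r, Igfbp2, Igfbp4, Igfbp5 and Igf2 by mean FPKM. There the ranges of Igfbp3 and Igf1 overlapped, as did those of Igfbp2 and Igfbp4, and the other neighbours were apart. In NC it ran Igfbp7, Igf1, Igf2r, Igfbp6, Igfbp3, Igf1r, Igfbp2, Igfbp5, Igfbp4 and Igf2. There Igf1r and Igfbp2 were the only neighbours whose ranges overlapped. Igfbp3 stood at the fifth place in NC and at the second with the antagomiR, and Igfbp4 and Igfbp5 stood in opposite order.

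The makeup of the binding protein transcripts differed accordingly. The summed level of Igfbp2 to Igfbp7 was 1079, 1039 and 1103 FPKM in antagomiR replicates 1 to 3, against 721, 755 and 777 FPKM in NC replicates 1 to 3. Igfbp7 made up 82.3 ± 1.48% of it with the antagomiR and 85.8 ± 0.704% in NC (SD, n = 3 each). Igfbp3 made up 11.7 ± 1.18% with the antagomiR and 3 ± 0.272% in NC (SD, n = 3 each).

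Leaving Igfbp7 aside, Igfbp2 to Igfbp6 are the genes of high-affinity binding proteins. Their summed level was 173, 197 and 198 FPKM in antagomiR replicates 1 to 3, against 96.3, 111 and 112 FPKM in NC replicates 1 to 3. Igfbp3 held 66.4 ± 2.03% of that sum with the antagomiR and 21.2 ± 1.44% in NC, and Igfbp6 held 22.9 ± 1.41% with the antagomiR and 46.4 ± 4.26% in NC (SD, n = 3 each). The largest share thus belonged to Igfbp3 in every antagomiR library and to Igfbp6 in every NC library. The remaining genes, Igfbp2, Igfbp4, Igfbp5 and Igfbp6 together, summed to 63.5 ± 3.06 FPKM with the antagomiR and 83.9 ± 7.33 FPKM in NC (SD, n = 3 each). Igf1 transcripts equalled 0.715, 0.626 and 0.618 times the Igfbp2 to Igfbp6 sum in antagomiR replicates 1 to 3, against 1.61, 1.25 and 1.37 times in NC replicates 1 to 3.

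**Figure D3:**
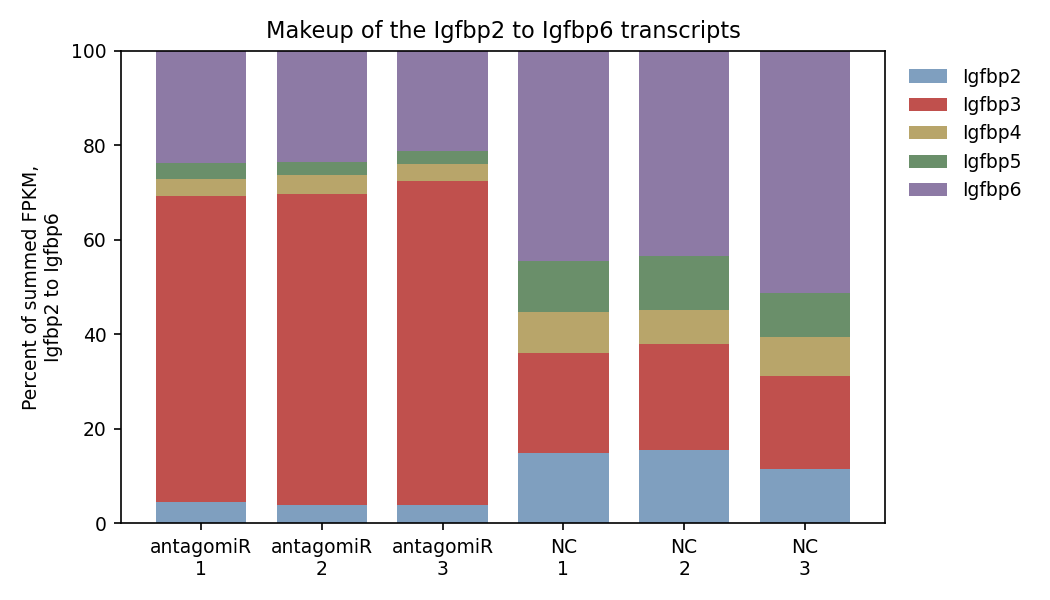
Share of each gene (y axis, percent) in the summed FPKM of Igfbp2 to Igfbp6 in each library (x axis, the 3 antagomiR libraries left of the 3 NC libraries). Igfbp3 (red) takes 64.6% to 68.6% of the sum with the antagomiR and 19.7% to 22.6% in NC.

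Genes with the most similar pattern were sought for the 3 genes with the largest differences, by the root mean square difference of log2(FPKM + 1), centred on each gene's mean, over the 6 libraries. Among all tested genes the nearest to Igfbp5 was Igfbp2, at 0.0476, and then St8sia2 at 0.0664 and Fam189a2 at 0.0685. For Igfbp2 it was Igfbp5, then the imprinted noncoding RNA gene H19 at 0.0632 and Fndc1 at 0.0672. For Igfbp3 it was Acod1 at 0.0894, an unnamed gene (ENSRNOG00000042468) at 0.101 and Nfkbiz at 0.145. Acod1 encodes an enzyme of activated macrophages that makes itaconate, and Nfkbiz a nuclear regulator of NF-kB. The distance largely restates like differences between the groups, by which the 3 genes had been picked. The genes near Igfbp3 had log2 fold changes of 2.35, 2.44 and 2.40, beside its 2.43. St8sia2 and Fam189a2 were at -0.96, H19 at -0.78 and Fndc1 at -0.91, beside -0.92 for Igfbp5 and -0.87 for Igfbp2. Shared regulation was not tested. Adding 1 before the logarithm draws low genes closer together, and in FPKM Acod1 and the unnamed gene differed from Igfbp3. Acod1 had 4.73, 5.37 and 5.91 FPKM in antagomiR replicates 1 to 3, against 0.0967, 0.272 and 0.358 FPKM in NC replicates 1 to 3. The unnamed gene had 4.47, 5.24 and 5.69 FPKM in antagomiR replicates 1 to 3, against 0.0586, 0.0942 and 0.232 FPKM in NC replicates 1 to 3. Both were thus near 0 in NC, where Igfbp3 had at least 20.4 FPKM. Nfkbiz was not near 0, with 21.7, 21.2 and 21 FPKM in antagomiR replicates 1 to 3, against 3.41, 3.15 and 3.1 FPKM in NC replicates 1 to 3.

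Igfbp2 and Igfbp5 are also neighbours on the chromosome. Igfbp2 is listed on chr9:74415546-74442937 and Igfbp5 on chr9:74448382-74465156, with 5444 bases and no other annotated gene between them, and in RefSeq they lie on opposite strands. Igfbp3 has Igfbp1 beside it, 3864 bases away, and Igfbp1, a liver-type binding protein gene, is listed at 0 in all 6 libraries. The nearest listed gene on the lower-coordinate side of Igf2 is H19, 81275 bases away, in the imprinted domain that both share. H19 had 4.14, 3.87 and 4.26 FPKM in antagomiR replicates 1 to 3, against 7.62, 9.12 and 6.58 FPKM in NC replicates 1 to 3. It fell by 0.78 on the log2 scale (limma adjusted p = 0.00267).

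The 250 bases before the annotated start of Igfbp3 and of the neighbours Igfbp2 and Igfbp5 are shown, since these genes differed most between the groups. They are RefSeq sequences of GRCr8, given 5′ to 3′ on the strand of the gene. Capitals mark matches to 7 short patterns searched on both strands. For the general promoter elements these were TATAAA, known as the TATA box, and the GC box, which reads GGGCGG. For factor families they were the NF-kB type, with any 5 bases between GGG and a closing CC, then the forkhead type, written GTAAACA, and the C/EBP type, written TTGCNNAA. The AP-1 type was written TGANTCA, and last came the STAT type, written TTCNNNGAA.
Igfbp3, minus strand of chr14:86277945-86278194: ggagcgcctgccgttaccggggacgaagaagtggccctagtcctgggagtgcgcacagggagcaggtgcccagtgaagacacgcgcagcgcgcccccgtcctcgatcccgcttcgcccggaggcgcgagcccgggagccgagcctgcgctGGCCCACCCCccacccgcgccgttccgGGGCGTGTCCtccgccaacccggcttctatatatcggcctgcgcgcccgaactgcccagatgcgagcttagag
Igfbp2, plus strand of chr9:81864561-81864810: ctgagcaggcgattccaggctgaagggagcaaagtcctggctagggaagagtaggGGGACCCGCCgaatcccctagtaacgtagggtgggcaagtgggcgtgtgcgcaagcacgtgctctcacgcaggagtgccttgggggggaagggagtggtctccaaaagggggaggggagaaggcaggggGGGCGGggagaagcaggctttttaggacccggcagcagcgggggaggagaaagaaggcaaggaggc
Igfbp5, minus strand of chr9:81914188-81914437: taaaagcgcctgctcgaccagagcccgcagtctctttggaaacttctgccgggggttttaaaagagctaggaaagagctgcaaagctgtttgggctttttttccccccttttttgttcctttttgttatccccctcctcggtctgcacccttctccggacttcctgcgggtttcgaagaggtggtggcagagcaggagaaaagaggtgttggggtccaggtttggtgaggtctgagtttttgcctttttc
The Igfbp3 window holds 2 matches to the NF-kB type pattern, starting 100 and 73 bases before the start. The Igfbp2 window holds 1 such match and 1 GC box, and the Igfbp5 window none of the 7 patterns. These windows differ in composition, with 71.6% G and C and 31 CG dinucleotides for Igfbp3, 64% and 11 for Igfbp2, and 51.6% and 8 for Igfbp5. Over all 33469 windows of this length the medians were 51.2% and 5.

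All 10 genes had at least 1 such window, and Igf2 had 2, either of which counted. The NF-kB type pattern was in windows of 8 of the 10 genes and in 42.3% of all windows. It was missing from Igf1 and Igfbp5. This pattern is rich in G and C, and the windows of the 10 genes had a median of 64% G and C, beside 51.2%. Their median number of CG dinucleotides was 15, beside 5 over all windows. A GC box was in 5 of the 10 genes and in 30.5% of all windows. The TATA box was in 1 gene, Igfbp4, the forkhead type in 1, Igfbp6, and the C/EBP type in 1, Igf2. All windows held these at 12.9%, 3.21% and 9.22%. The AP-1 and STAT type patterns were in none of the 10, and in 6.34% and 7.67% of all windows. GC box and NF-kB type matches overlapped in Igf2r, Igf1r and Igfbp7. A match is a likeness of letters and no evidence of a factor bound there.

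Other genes of the pathway were read from 9 lists of 83 genes. The comparison asked which of them differed when miR-142-3p was targeted. Of 70 tested, 21 rose and 7 fell by limma at an adjusted p under 0.05, beside 17.5% risen and 9.21% fallen of all 12024 tested genes, and their median log2 fold change was 0.13, beside 0.06. Without NC replicate 3, 29 rose and 12 fell, beside 26.6% risen and 13.9% fallen of all genes tested at that setting. Of called genes in the whole set, 65.6% had risen. That share was 51.4% when libraries were scaled by median ratios and 43.5% with quantiles equalized, a step that shifted the all-gene median by -0.10. Markers of every cell type listed also differed between the groups, and the ranges of their summed levels did not overlap for any of the 5 lists. Of 10 fibroblast markers 6 rose and 2 fell, and of 15 leukocyte markers 7 rose and none fell. Of 5 tested smooth muscle and pericyte markers none rose and 4 fell, of 7 tested cardiomyocyte markers 2 rose and 1 fell, and of 2 tested endothelial markers 1 rose. The part of these cell types in the changes of the pathway genes was not tested.

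**Figure D4:**
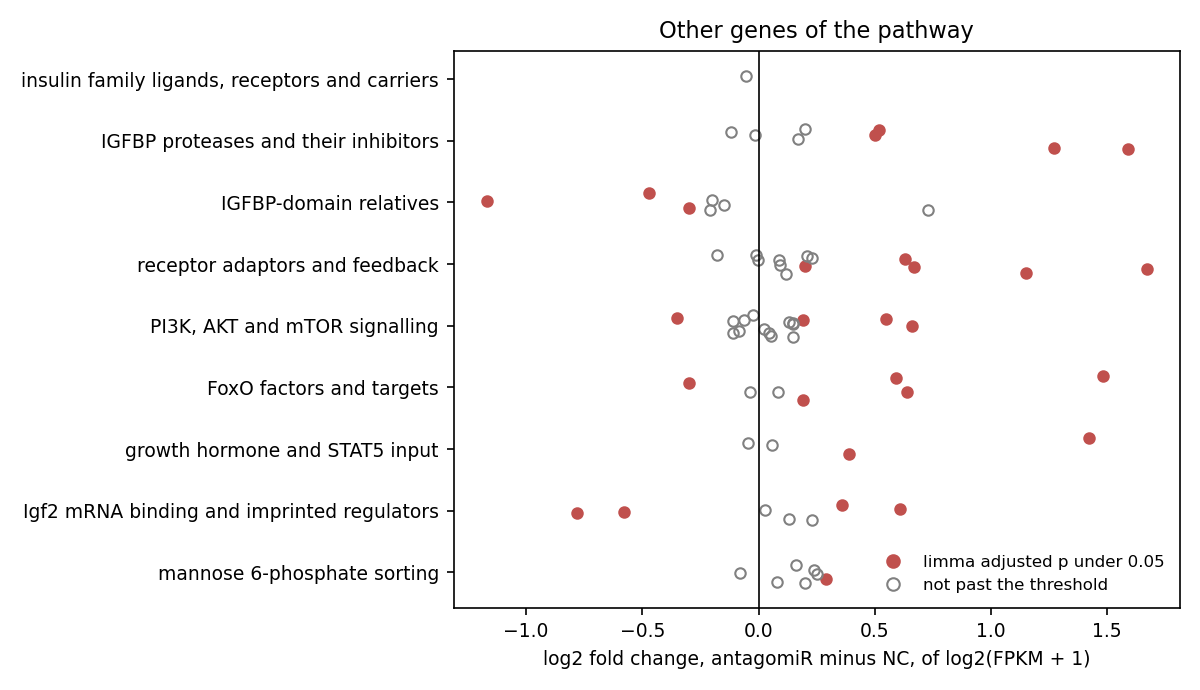
Log2 fold change (x axis, antagomiR minus NC of log2(FPKM + 1)) of the tested genes in the 9 pathway lists (rows), 1 point a gene, filled where limma adjusted p was under 0.05. The filled points to the right include Socs3 at 1.67, Adam12 at 1.59, Fbxo32 at 1.48 and Jak2 at 1.42, and those to the left Ccn3 at -1.17 and H19 at -0.78.

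Proteases that cut the binding proteins were among the genes that rose. Of 8 tested genes in the list of IGFBP proteases and their inhibitors, 4 rose and none fell, beside 17.5% and 9.21% of all tested genes. Without NC replicate 3 the counts were 5 and 1, beside 26.6% and 13.9%. Adam12, a membrane metalloprotease known in human to cut IGFBP3 and IGFBP5, had 17.2 ± 0.912 FPKM with the antagomiR and 5.07 ± 0.525 FPKM in NC (SD, n = 3 each). It rose by 1.59 on the log2 scale (standard error 0.081, limma adjusted p = 4.47e-05). Htra3 rose by 1.27 (limma adjusted p = 0.000113) and Htra1 by 0.52 (limma adjusted p = 0.00429). Both encode secreted serine proteases. Pappa1, the gene of the protease pappalysin that cuts IGFBP4, had 23.6, 25.7 and 23.4 FPKM in antagomiR replicates 1 to 3, against 18.1, 18.3 and 14.2 FPKM in NC replicates 1 to 3. It rose by 0.50 (limma adjusted p = 0.0114), but without antagomiR replicate 2 the adjusted p was 0.0513. Among those not called, Adam9 was at -0.12 (limma adjusted p = 0.142). It was called as lower at -0.18 after median-ratio scaling, -0.20 after quantile normalization, -0.19 by voom and -0.14 without NC replicate 3 (adjusted p between 0.0359 and 0.049). Ctsd, a lysosomal protease gene, was at 0.20 (limma adjusted p = 0.449), with 248, 273 and 410 FPKM in NC replicates 1 to 3, and was called at 0.42 without NC replicate 3 (limma adjusted p = 0.000902).

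Genes that share the IGFBP-type domain with the binding proteins fell where called in the main fit. Of 7 tested members, 3 fell and none rose, beside 9.21% fallen and 17.5% risen of all tested genes. Without NC replicate 3 the counts were 4 fallen and 1 risen, beside 13.9% and 26.6%. Ccn3, a matricellular protein gene, had 309 ± 9.91 FPKM with the antagomiR and 699 ± 56.8 FPKM in NC (SD, n = 3 each) and fell by 1.17 on the log2 scale (limma adjusted p = 0.000106). Ccn1 fell by 0.47 (limma adjusted p = 0.00214). Ccn2, connective tissue growth factor, fell by 0.30 (limma adjusted p = 0.0173) and lost its call in 6 of 15 alternatives, including with no filter (limma adjusted p = 0.0995), without NC replicate 2 and without any 1 antagomiR library (limma adjusted p up to 0.0952 when a library was left out). Esm1, of the same list, was higher but not called, at 0.73 (standard error 0.27, limma adjusted p = 0.0881). Ccn5 and Ccn4 were not called, at -0.20 and -0.15. Ccn5 was called at -0.27 after median-ratio scaling and by voom, and at -0.24 without NC replicate 3 (adjusted p between 0.0133 and 0.0377).

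Inhibitors of receptor signalling were among the risen genes of the receptor adaptor and feedback list. There 5 of 13 rose and none fell, beside 17.5% and 9.21% of all tested genes. Without NC replicate 3 the counts were 6 and 1, beside 26.6% and 13.9%. Socs3, a suppressor of cytokine and insulin receptor signalling, had 7.06 ± 0.292 FPKM with the antagomiR and 1.55 ± 0.386 FPKM in NC (SD, n = 3 each) and rose by 1.67 (limma adjusted p = 0.000138). Socs1 rose by 1.15 (limma adjusted p = 0.00096) and Socs2, known to restrain growth hormone signalling, by 0.63 (limma adjusted p = 0.00801). At these low levels the value depends on the pseudocount, and it was 1.80 for Socs1 with a pseudocount of 0.1, 1.92 for Socs1 with 0.01 and 1.83 by voom, and 0.96 for Socs2 with 0.01. Ptpn1, a phosphatase of the insulin and IGF1 receptors, rose by 0.67 (limma adjusted p = 0.000463). The adaptor gene Grb2, also counted as risen, was close to the threshold at 0.20 (limma adjusted p = 0.0424). It lost its call after median-ratio scaling, by voom and without any 1 library other than NC replicate 3. The risen genes of the list then numbered 4, and 1198 to 1845 genes of the whole table rose at these settings. The adaptor genes Shc1, at 0.21, and Grb10, at -0.18, were not called (limma adjusted p = 0.0554 and 0.08). Without NC replicate 3 both were called (limma adjusted p = 0.00466 and 0.0163), and Grb10 also at -0.25 after median-ratio scaling and by voom.

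In the PI3K, AKT and mTOR list 3 of 16 rose and 1 fell, beside 17.5% and 9.21% of all tested genes. Without NC replicate 3 the counts were 4 and 3, beside 26.6% and 13.9%. Pik3r1, a regulatory subunit gene of PI3K, rose by 0.55 (limma adjusted p = 0.00188), and Pik3cb, a catalytic subunit gene, by 0.66 (limma adjusted p = 0.00566). Eif4ebp1, a repressor of translation that mTOR turns off, fell by 0.35 (limma adjusted p = 0.00489). Mtor was called at 0.19 (limma adjusted p = 0.0426) and lost the call in 10 of 15 alternatives, including without any 1 library other than NC replicate 3 (limma adjusted p up to 0.142). It was at 0.06 after quantile normalization (limma adjusted p = 0.47), 0.13 after median-ratio scaling (limma adjusted p = 0.136) and 0.14 by voom (adjusted p = 0.0844), and with no filter its limma adjusted p was 0.053. The abundant kinase genes Akt1 and Akt2 were not called, at 0.023 and 0.055, and both were below 0 after median-ratio scaling.

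FoxO factors are held out of the nucleus when AKT is active. Of 7 tested FoxO factors and targets 4 rose and 1 fell, beside 17.5% and 9.21% of all tested genes. Without NC replicate 3 the counts were the same, beside 26.6% and 13.9%. Fbxo32, a ubiquitin ligase gene and FoxO target in muscle, had 8.26 ± 0.235 FPKM with the antagomiR and 2.34 ± 0.409 FPKM in NC (SD, n = 3 each) and rose by 1.48 (limma adjusted p = 0.000123). Foxo3 rose by 0.64 (limma adjusted p = 0.00079) and Klf15 by 0.59 (limma adjusted p = 0.00443). Cdkn1b, also counted as risen, was close to the threshold at 0.19 (limma adjusted p = 0.0465). It lost its call after median-ratio scaling, after quantile normalization, by voom and without any 1 library other than NC replicate 3. The risen genes of the list then numbered 3, and 1198 to 1845 genes of the whole table rose at these settings. Foxo1 fell by 0.30 (limma adjusted p = 0.0354) and lost its call in 7 of 15 alternatives, including with no filter (limma adjusted p = 0.0677) and without any 1 library other than NC replicate 3 (limma adjusted p up to 0.12). Sesn1 and Sesn3 were not called, at 0.084 and -0.035.

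Growth hormone acts through JAK2 and STAT5 to induce Igf1 in liver. Of 4 tested genes of that input 2 rose and none fell, beside 17.5% and 9.21% of all tested genes. Without NC replicate 3 the counts were the same, beside 26.6% and 13.9%. Jak2 had 16.8 ± 0.986 FPKM with the antagomiR and 5.68 ± 0.337 FPKM in NC (SD, n = 3 each) and rose by 1.42 (limma adjusted p = 4.46e-05). Stat5a rose by 0.39 (limma adjusted p = 0.0228), a call lost in 6 of 14 alternatives, including without NC replicate 2 and without any 1 antagomiR library (limma adjusted p up to 0.0899). After quantile normalization it was at 0.24 (limma adjusted p = 0.109). Stat5b, at 0.057, and the growth hormone receptor gene Ghr, at -0.044, were not called.

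The list of Igf2 mRNA binders, imprinted genes and other regulators moved both ways. Of 7 tested, 2 rose and 2 fell, beside 17.5% and 9.21% of all tested genes. Without NC replicate 3 the counts were the same, beside 26.6% and 13.9%. Beside H19, the chromatin protein gene Hmga2 fell, by 0.58 (limma adjusted p = 0.0334), with 0.942 ± 0.236 FPKM with the antagomiR and 1.92 ± 0.527 FPKM in NC (SD, n = 3 each). Its call was lost in 4 of 14 alternatives, including with no filter (limma adjusted p = 0.0606), without NC replicate 1 and without antagomiR replicate 1 or 2 (limma adjusted p up to 0.114). With a pseudocount of 0.1 or 0.01, or by voom, Hmga2 was at -0.94, -1.01 and -1.05. Igf2bp2, an RNA-binding protein gene, rose by 0.36 (limma adjusted p = 0.00662), and Cdkn1c, an imprinted inhibitor of the cell cycle, by 0.61 (limma adjusted p = 0.00764). Igf2bp2 was at 0.23 after quantile normalization, and Cdkn1c at 1.06 and 1.15 with pseudocounts of 0.1 and 0.01 and at 1.09 by voom. Igf2bp3 and Igf2bp1 were not called, at 0.23 and 0.13, and Igf2bp3 was called without antagomiR replicate 1 (limma adjusted p = 0.0378).

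Mannose 6-phosphate sorting is the system in which IGF2R also works. In its list 1 of 7 genes rose and none fell, beside 17.5% and 9.21% of all tested genes. Without NC replicate 3 the counts were 5 and 0, beside 26.6% and 13.9%. The risen gene was Gnptab, which encodes the enzyme that adds the sorting signal, at 0.29 (limma adjusted p = 0.0153). Its call was lost in 4 of 15 alternatives, including without NC replicate 2 and without antagomiR replicate 2 or 3 (limma adjusted p up to 0.0745). After quantile normalization it was at 0.20 (limma adjusted p = 0.0516). M6pr, the gene of the other mannose 6-phosphate receptor, was at 0.20 (limma adjusted p = 0.0586), and without NC replicate 3 it was called (limma adjusted p = 0.00176). Gga1 was not called, at 0.081.

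Of the insulin family list, the insulin receptor gene Insr alone was tested and was not called, at -0.056 (limma adjusted p = 0.646), with 5.29 ± 0.208 FPKM with the antagomiR and 5.55 ± 0.49 FPKM in NC (SD, n = 3 each). The insulin genes Ins1 and Ins2 and the prolactin receptor gene Prlr, like Igfbp1, are listed at 0 in every library. Igfals, the partner of IGFBP3 in blood, was at 0.0606, 0.127 and 0.0981 FPKM in antagomiR replicates 1 to 3, against 0.184, 0.222 and 0.0683 FPKM in NC replicates 1 to 3. Irs4 and Foxo4 were not analysed here.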

How the data were processed

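PolyA-selected RNA of cultured rat cardiac fibroblasts was read from both ends over 150 bp, as the labels' protocols state. The submitters' processing notes list HISAT2, HTSeq, edgeR, cutadapt and FastQC, without versions, and the build mRatBN7.2. The sources used here give no annotation release or strand setting. FPKM, computed by the authors, fill the deposited table, with 1 column per library.

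Library totals were worked out from genes under 400 bp, and fragments from the steps between FPKM values. For 20133 of the 20134 genes above 0, some gene length turned all 6 values into whole fragments (tolerance 0.01). Fragment numbers cover counting error only.

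Limma 3.58.1 in R 4.3.3 (lmFit, eBayes with a trend, two-sided, no block) was run on log2(FPKM + 1) for the 12024 genes averaging 1 FPKM or more, with Benjamini-Hochberg adjustment over all of them, and was tested on simulated data. Alternatives were pseudocounts of 0.1 and 0.01, no filter, a filter at 5 FPKM, voom, a replicate block, quantile normalization, median-ratio scaling, no trend, and leaving out each library.

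The 10 genes, the lists, markers and tests were chosen with earlier results of these data known. Named from each list are up to 4 called genes with the smallest p and up to 2 tested genes of highest level that were not called. Genes of similar pattern were taken for the 3 genes with the largest differences. The binding protein sum without Igfbp7, the neighbouring genes and Polr2b were added after values were seen, as were Esm1, Grb2, Cdkn1b and the genes named as listed at or near 0. Motifs were searched in RefSeq sequences of GRCr8, matched by symbol for 10 of 10 genes, and no coordinates were converted between builds. Protein sequences were not used here.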

Additional observations from a re-analysis of the deposited data

How the results depend on the processing

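The 7 genes of the axis whose groups did not overlap kept the sign of their log2 fold change in every alternative they entered, and Igf1r changed sign. Of 149 values of the 10 genes under an alternative, 15 moved by more than the spread between libraries. Genes of the axis past the threshold numbered 3 higher throughout and 3 to 5 lower. Over the same alternatives 1198 to 3200 genes of the whole table rose and 668 to 1849 fell. Nothing is read from the counts of the axis, since its genes were chosen with this contrast known. The difference in the Igfbp3 share of the Igfbp2 to Igfbp7 sum, 8.73 percentage points, lay between 8.33 and 9.41 without any 1 library, and that of Igfbp7, -3.49, between -4.29 and -2.83.

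Leaving out 1 library gave 1198 to 3200 risen and 668 to 1677 fallen genes in the whole table, and 15 to 29 risen and 4 to 12 fallen pathway genes, the highest of each without NC replicate 3. There were 1849 fallen genes after quantile normalization. Fallen pathway genes numbered 4 with no filter, beside 1100 of all 20134 genes tested at that setting. They numbered 11 both after median-ratio scaling and by voom, beside 1484 of 12022 and 1583 of 12024 tested genes. For these shifts the cause was not tested. Of 28 called pathway genes, 26 were named by the rule of smallest p. Of these, 19 kept their call in every alternative and 7 lost it in at least 1. Left out of the 26 were the weak calls Grb2 and Cdkn1b (limma adjusted p = 0.0424 and 0.0465), which were also lost in some alternatives. Among genes named by rule, signs changed only in those that were not called. After median-ratio scaling the values were -0.045 for Akt1, -0.012 for Akt2 and -0.0065 for Stat5b, and by voom -0.047, -0.012 and -0.0081. After quantile normalization they were -0.049 for Stat5b, -0.064 for Sesn1, -0.024 for Igf2bp1 and -0.00088 for Gga1. Leaving out 1 library gave -0.046 (without NC replicate 1) to 0.10 for Akt1, -0.013 (without NC replicate 2) to 0.15 for Akt2, -0.09 to 0.022 (without NC replicate 1) for Sesn3 and -0.12 to 0.0022 (without NC replicate 1) for Ghr.

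The labels do not say that equal replicate numbers mark shared preparations, and deviations from the group means correlated at -0.16, -0.06 and -0.04 for equal numbers. With the replicate block 2380 genes were called in place of 3216, 1571 risen and 809 fallen, and 17 pathway genes rose and 5 fell. Of the genes named by rule, Ccn2, Mtor, Foxo1 and Stat5a were not called with it (limma adjusted p = 0.123, 0.133, 0.0932 and 0.0657). Grb2 and Cdkn1b were not called with it either. Depth limits Igf2, Igfbp2 and Igfbp4 most, at 182 to 543 fragments a library.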

Other observations

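Beyond Igfbp2 with Igfbp5 and Igf2 with H19, the genes next to those of the axis were mostly silent or low, as were most listed genes. Of 18 neighbouring genes outside the axis, 6 passed the filter, beside 12024 of all 30560 listed genes. Of these 6, 1 rose and 2 fell by limma, beside 17.5% risen and 9.21% fallen of all tested genes. The risen gene was Top2a, a topoisomerase gene of dividing cells 12716 bases from Igfbp4, at 0.59 (limma adjusted p = 0.00197). The fallen ones were H19 and Spryd3, 11031 bases from Igfbp6, at -0.28 (limma adjusted p = 0.0177). Igfbp4 and Igfbp6 themselves overlapped between the groups. Noa1, 37932 bases from Igfbp7, was at 0.0021 (limma adjusted p = 0.987).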
